A study of Mus musculus with 43 samples.

Results

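Distal H3K27ac peaks that appeared at postnatal day 14 (P14) in wild-type mouse germ cells are described here. A member was chosen by its H3K27ac calls: a peak of P14 replicate 1 that overlapped a peak of replicate 2 by at least 1 bp, overlapped no peak of either P7 list, lay more than 3000 bp from every annotated transcript start (GENCODE vM21) and overlapped no P14 H3R2me2a peak. Of 37984 peaks in that list, 1606 (4.23%) met the rule. Since H3K27ac at both ages and H3R2me2a at P14 selected the members, these measures are given below as description, without a test.

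The peaks came from CUT&Tag, in which an antibody tethers Tn5 transposase so that chromatin near a modified histone is cut and sequenced. Germ cells were prepared, with a strainer step against Sertoli cells, from testes of C57BL/6J WT mice at P7 and P14 for 7 marks, with 2 or 3 samples for each mark and age. The sample titles at P14 say spermatogonia, while the cell type label of the same samples says spermatocyte. H4R3me2s was also profiled at P7 in dKO mice, in which tamoxifen over 3 days induced deletion of floxed Prmt1 through a Cre driven by the germ cell gene Ddx4. RNA was profiled only at P7, as bulk RNA-seq of whole testis (3 WT and 3 dKO) and as Smart-seq2 of sorted spermatogonia (2 WT and 2 dKO by the labels, while the sorting methods name controls heterozygous for floxed Prmt1 that carry the Cre), so no RNA of the age at which the members were called was analysed here. The study's methods call its replicates biological, while the labels do not say which came from separate mice; p-values measure only the spread between these samples.

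Acetylation of histone H3 at lysine 27 marks active promoters and enhancers. Away from transcript starts it is widely used to locate enhancers, short stretches of DNA that bind transcription factors and raise transcription of genes that may lie far along the chromosome. In the first wave of mouse spermatogenesis, spermatogonia are the main germ cells in the first postnatal week, and spermatocytes in meiotic prophase accumulate in the second. H3K4me3 marks active or poised promoters, and the asymmetric arginine marks H4R3me2a, H3R2me2a and H3R8me2a are laid down by type I arginine methyltransferases. The study assigns these marks to Prmt1, Prmt6 and Prmt2, in that order.

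The members with the highest enrichment are shown first, because they carry the clearest signal of the set. Rank follows the lower of the 2 replicate fold enrichments. Each sequence covers 200 bp around the replicate 1 summit on the plus strand of GRCm38, read 5′ to 3′ from the RefSeq genome, and is named by the nearest protein-coding gene. Capitals mark matches to the 3 motifs with the highest ratio of members to peaks of both ages (letters given further on). The Kif21a window is intronic, the Cxcr3 window is intergenic, and the windows of Ccdc141, Dock11 and Gm45194 are intronic.
Kif21a, rank 1, chr15:91028906-91029105: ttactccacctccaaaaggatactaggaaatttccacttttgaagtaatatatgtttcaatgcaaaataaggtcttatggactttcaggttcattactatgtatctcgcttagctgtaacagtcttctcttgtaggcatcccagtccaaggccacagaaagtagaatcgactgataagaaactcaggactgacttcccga
Cxcr3, rank 2, chrX:101695890-101696089: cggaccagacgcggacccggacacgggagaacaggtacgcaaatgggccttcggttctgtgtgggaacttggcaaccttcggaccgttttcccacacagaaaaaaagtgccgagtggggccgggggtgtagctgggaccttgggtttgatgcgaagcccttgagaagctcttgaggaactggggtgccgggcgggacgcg
Ccdc141, rank 3, chr2:77079563-77079762: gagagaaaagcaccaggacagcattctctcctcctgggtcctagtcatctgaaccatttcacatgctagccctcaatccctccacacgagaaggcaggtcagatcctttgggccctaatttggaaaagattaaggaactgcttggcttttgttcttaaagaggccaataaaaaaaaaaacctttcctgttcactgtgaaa
Dock11, rank 6, chrX:36025093-36025292: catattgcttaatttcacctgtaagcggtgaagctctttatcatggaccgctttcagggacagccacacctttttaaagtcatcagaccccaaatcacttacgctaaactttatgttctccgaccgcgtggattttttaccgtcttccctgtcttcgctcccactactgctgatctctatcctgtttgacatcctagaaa
Gm45194, rank 7, chrX:111894503-111894702: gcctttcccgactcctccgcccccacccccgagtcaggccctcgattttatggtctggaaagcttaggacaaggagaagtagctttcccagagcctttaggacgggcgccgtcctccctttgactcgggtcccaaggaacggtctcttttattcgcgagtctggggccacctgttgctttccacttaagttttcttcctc
The Scml2 window is intergenic and stands for 5 near-identical members beside Scml2, a germline Polycomb-associated gene of the X chromosome.
Scml2, rank 8, chrX:161090469-161090668: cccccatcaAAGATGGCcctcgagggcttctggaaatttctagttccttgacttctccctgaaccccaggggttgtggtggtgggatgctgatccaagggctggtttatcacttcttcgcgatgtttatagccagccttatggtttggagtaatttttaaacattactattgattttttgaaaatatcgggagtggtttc
The windows nearest to 1810024B03Rik (intergenic) and to Diaph3 (intronic) are the highest ranked with a FOX match and with a match to the E-box with a central GC.
1810024B03Rik, rank 9, chr2:127183033-127183232: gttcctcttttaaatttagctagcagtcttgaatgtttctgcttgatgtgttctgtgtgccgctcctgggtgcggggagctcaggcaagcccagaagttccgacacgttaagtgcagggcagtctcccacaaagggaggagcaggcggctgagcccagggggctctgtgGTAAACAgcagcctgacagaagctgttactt
Diaph3, rank 12, chr14:87123479-87123678: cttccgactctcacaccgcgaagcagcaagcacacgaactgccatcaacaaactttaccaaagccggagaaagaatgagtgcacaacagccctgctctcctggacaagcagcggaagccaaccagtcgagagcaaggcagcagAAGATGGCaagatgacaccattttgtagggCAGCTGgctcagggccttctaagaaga
The windows nearest to Thada (intronic) and Oit1 (intergenic) stand for the 2 largest groups of members with similar sequence, which lie mostly in bases that RefSeq masks as repeats.
Thada, rank 32, chr17:84291089-84291288: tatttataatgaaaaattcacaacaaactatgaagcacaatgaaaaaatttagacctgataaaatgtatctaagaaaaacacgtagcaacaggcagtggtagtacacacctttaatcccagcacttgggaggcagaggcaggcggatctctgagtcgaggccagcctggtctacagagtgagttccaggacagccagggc
Oit1, rank 28, chr14:8421046-8421245: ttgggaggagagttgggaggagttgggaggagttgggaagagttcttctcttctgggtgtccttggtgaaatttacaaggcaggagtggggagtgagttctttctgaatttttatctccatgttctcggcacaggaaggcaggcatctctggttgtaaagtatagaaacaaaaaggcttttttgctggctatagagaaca

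The members had low fold enrichment and narrow peaks. MACS2, the peak caller used by the authors, gives fold enrichment as the pileup of fragments at the summit over the local background, each with 1 added. The fold had a median of 3.24 in replicate 1 (range 2.15 to 6.85) and 3.21 in replicate 2 (range 2.01 to 6.94). The width had a median of 298.5 bp, against 492.0 bp for the 255 distal peaks found in all 4 H3K27ac lists without H3R2me2a and 535.0 bp for the 678 such peaks with H3R2me2a. Distal peaks new at P14 with H3R2me2a had values close to the members, with fold medians of 3.33 and 3.25 and a width median of 342.0 bp. The pileup at the summit could be recovered as a whole number from the deposited fold and p-value for all 37984 peaks of the replicate 1 list and all 45817 of the replicate 2 list. The members had a median of 10 fragments in replicate 1 (range 6 to 29) over a background of 2.26, and of 11 fragments in replicate 2 (range 6 to 36) over a background of 2.72. The smallest pileup called against the genome-wide background in the P7 H3K27ac lists was 6 fragments. The lower of the 2 P14 pileups was 9 fragments or fewer for 806 members (50.2%) and 12 or more for 392 members (24.4%).

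The depth of the 4 H3K27ac lists was similar by the background pileup, at 1.70 and 1.67 fragments for P7 and 1.76 and 2.02 for P14, although the P14 lists held 37984 and 45817 peaks and the P7 lists 21974 and 23780. Few peaks of this kind recurred between the P14 replicates. Of 11223 replicate 1 peaks that were distal with no P7 peak and no H3R2me2a, 1606 (14.3%) overlapped replicate 2. The share was 23.7% of 4262 distal peaks without a P7 peak but with H3R2me2a, 71.4% of 357 distal peaks present in both P7 lists without H3R2me2a, and 60.9% of 18438 peaks within 3000 bp of a start. Fold in replicate 1 and replicate 2 of the same member had a Pearson's r of 0.267 over 1606 members, which is across members of 2 lists and not across independent samples. The lists hold calls with weak support: both replicates had a q of at most 0.01 for 261 members (16.3%) and of at most 0.05 for 765 (47.6%). Absence from a P7 list means that no peak was called there, not that no acetylation was present.

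**Figure D1:**
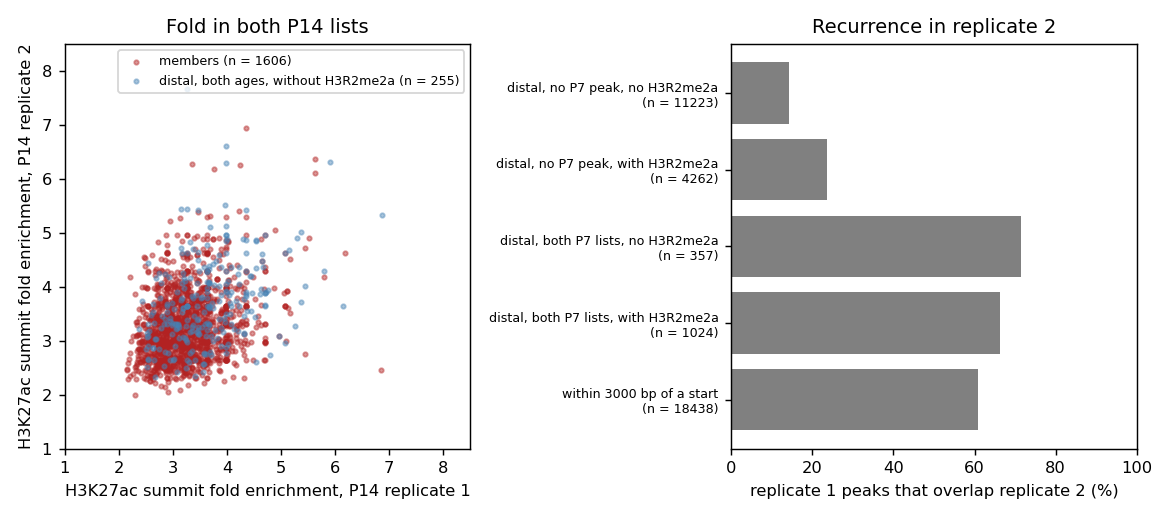
Left, summit fold enrichment of H3K27ac in P14 replicate 1 (x axis) and replicate 2 (y axis) for each member and for distal peaks of both ages without H3R2me2a (1 point per peak). Right, percent of replicate 1 peaks of each class that overlapped replicate 2, where the class of the members has the lowest bar, at 14.3%.

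The 10 highest members had these values. The member in an intron of Kif21a, a kinesin gene, had folds of 5.63 and 6.38 (15 and 24 fragments) at chr15:91028768-91029135. The intergenic member at chrX:101695701-101696448, 4140 bp from Gm14845 and 38279 bp from Cxcr3, had folds of 5.62 and 6.11 with 29 and 31 fragments, the highest pileups of the 10. The member in an intron of Ccdc141 had folds of 5.52 and 4.91. These 3 members were above 4.9 in both replicates. The next, in an untranslated region of Zbtb20, a zinc finger repressor gene, but nearest to the start of Tigit and counted there, had folds of 4.89 and 5.05, and an intergenic member 905493 bp from Celf4 had 5.44 and 4.72. The X-linked members of Dock11, Gm45194 and Scml2 had 4.71 and 4.96, 6.17 and 4.63, and 5.07 and 4.63. The last of the 10, nearest to 1810024B03Rik and in an intron of Pdss2, a gene of ubiquinone synthesis, had 4.62 and 4.88, and 5.16 and 4.52. At P14, 5 of the 10 carried an H3K4me3 peak in both lists, and none carried an H4R3me2a, H3R8me2a, H4R3me1 or H4R3me2s peak in all lists of the mark. The limit of 3000 bp fell between members nearest to Ndufa7 and Lyl1 (3004 bp each, folds of 3.00 and 2.55 and of 3.50 and 3.46) and a peak left out near Rnf17 (2993 bp, folds of 3.99 and 3.31).

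Most members lay inside genes. The summit was in an intron for 906 members (56.4%, 95% Wilson interval 54.0 to 58.8%), between genes for 631 (39.3%), in an exon outside untranslated regions for 38 and in an untranslated region for 31. Introns held 53.7% of the 255 peaks of both ages without H3R2me2a and 42.3% of the 678 with it. The median distance to the nearest transcript start was 12257.5 bp (quartiles 6937 and 25467 bp), and 135 members (8.41%) lay over 50000 bp away. The 2 members on unplaced scaffolds have no annotated start and are left out of distances and sequences. Intervals here and below cover counting error only.

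Most members stood alone on the chromosome. When members at most 12.5 kb apart were joined, 1458 stood alone, 126 fell into pairs, 18 into 6 clusters of 3, and 4 into the largest cluster. That cluster spans chr3:31208788-31235719 within Slc7a14, an amino acid transporter family gene. Its folds were 3.03 and 3.71, 3.45 and 3.75, 3.73 and 3.40, and 2.79 and 2.52, and none of the 4 carried H3K4me3 in both P14 lists. Slc7a14 itself had neither an H3K27ac nor an H3K4me3 promoter peak in both lists at either age. Its RNA at P7 averaged 0.350 ± 0.104 TPM in WT testis (SD, n = 3). The clusters of 3 lay in L3mbtl4, in Scml2, near Gm21750, between Plau and Vcl, near Btg3, and in Dnmt3c, a germline DNA methyltransferase gene.

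The X chromosome had few members for its length, and several of them ranked high. The 31 X-linked members (1.93%) gave 0.181 members per Mb, against 0.639 per Mb on the autosomes and a lowest autosomal density of 0.491 on chromosome 1. The X share of the whole replicate 1 list was 1.95%, close to that of the members. The X share of members was 3.42% at a q of at most 0.01 and 3.85% at equal list length. None lay on the Y chromosome. Of the 10 highest members, 4 were on X, as were 8 of the 100 highest. H3K4me3 was called in both P14 lists over 11 of the 31 X-linked members (35.5%) and over 6.17% of autosomal ones. These 11 were the 5 beside Scml2, the 2 nearest to Cxcr3, the 2 nearest to Gm15107, and those nearest to Gm45194 and Spin4.

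The 5 members beside Scml2 were nearly identical in sequence. Pairwise identity of their aligned bases ran from 97.5 to 99.7%, and 8.60% of the bases in their windows were masked. They lie at chrX:161082501-161083017, chrX:161090177-161090800, chrX:161138534-161139038, chrX:161150014-161150307 and chrX:161156886-161157501, the last 3 in introns of Scml2. Folds were 5.07 and 3.64, 5.07 and 4.63, 3.62 and 4.63, 3.62 and 3.87, and 3.62 and 4.30 in that order. All 5 had H3K4me3 in both P14 lists. The sources used here do not say how reads with several possible positions were handled. Whether the fragments can be assigned to single copies was not tested. The 2 members nearest to Gm15107 were identical where aligned (100%).

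**Figure D2:**
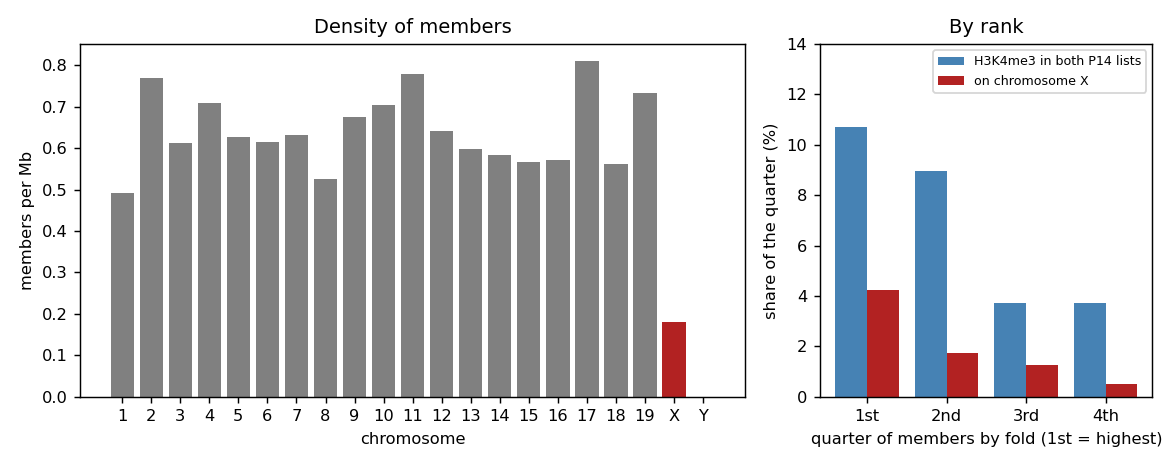
Left, members per Mb for each chromosome, with X and Y in red, where X had 0.181 and Y had 0. Right, members split into 4 groups of 401 or 402 by the lower replicate fold, from highest to lowest, with the percent of each group that had H3K4me3 in both P14 lists (blue) and that lay on X (red), falling from 10.7 to 3.73% and from 4.23 to 0.498%.

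Members with H3K4me3 had higher GC content and more CpG dinucleotides than the other members. The mark was called in both P14 lists over 109 members (6.79%, interval 5.66 to 8.12%), of which 108 have a genome window. Mean GC content of the window was 53.1 ± 7.83% (SD over 108 members), against 47.9 ± 5.79% for 1496 members without the mark in both lists. At least 8 CpG dinucleotides, the pairs of C and G that cluster at many promoters, occurred in 33 (30.6%) and in 41 (2.74%). Of the 108, 58 (53.7%) were intergenic, against 571 (38.2%) of the others, and the median distance to an annotated start was 12579.5 and 12187 bp. Of these 108, 72 had the mark at P7 in no list or in 1. The share with H3K4me3 fell from 10.7% of the 402 members with the highest folds to 3.73% of the 402 with the lowest. No test was made over regions, which are not replicates.

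Members held fewer repeat-masked bases than distal peaks of both ages with H3R2me2a. RefSeq masking covered 18.4% of bases in the windows of 1604 members, 18.1% for peaks of both ages without H3R2me2a, 42.3% for those with H3R2me2a and 22.2% for all 19467 distal peaks of the list with a window. Mean GC content was 48.2 ± 6.09% for members and 49.97 ± 6.42% for all distal peaks (SD over windows). Sequence similarity joined 61 members (3.80%) into 15 groups. The largest held 16 members on 12 chromosomes, with 83.6 to 95.6% identity and 52.7% of bases masked, and the Thada window belongs to it. The group of the Oit1 window held 10 members with 83.1 to 96.8% identity, and none had H3K4me3 in both P14 lists. Of the 10 highest members, the one nearest to Celf4 belonged to this group and the one in Pdss2 to a group of 3.

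Motif letters were counted on both strands of the 200 bp windows. The highest ratios of the share of members to the share of all 883 peaks of both ages were those of YY1 (letters AAGATGGC), a zinc finger factor, FOX (letters TGTTTAC), the forkhead family, and an E-box with a central GC (letters CAGCTG), which basic helix-loop-helix factors bind. YY1 letters were in 27 members (1.68%, interval 1.16 to 2.44%), in 0.793% of the peaks of both ages and in 1.12% of all distal peaks. FOX letters were in 53 members (3.30%, interval 2.54 to 4.30%), 1.81% and 2.47%. The E-box was in 214 members (13.3%, interval 11.8 to 15.1%), 7.36% and 12.6%. The peaks of both ages with H3R2me2a were 42.3% masked, and in the 255 without H3R2me2a the shares were 1.18%, 3.53% and 10.6%, and the intervals of the members contain the first 2 of these. The letters AGATAA, bound by GATA factors such as the Sertoli factor Gata4, were in 10.8% of members, in 5.26% of new distal peaks with H3R2me2a and in 7.65% of all distal peaks. They were in 12.9% of peaks of both ages without H3R2me2a. The letters GGCNGTT of the MYB family, which includes the pachytene regulator Mybl1, were in 7.73% of members and 7.10% of all distal peaks, and the RFX letters GTTGCCA in 2.31% and 2.22%. The full CRE letters TGACGTCA were in 2 members. A match is a description of the letters and not of binding.

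**Figure D3:**
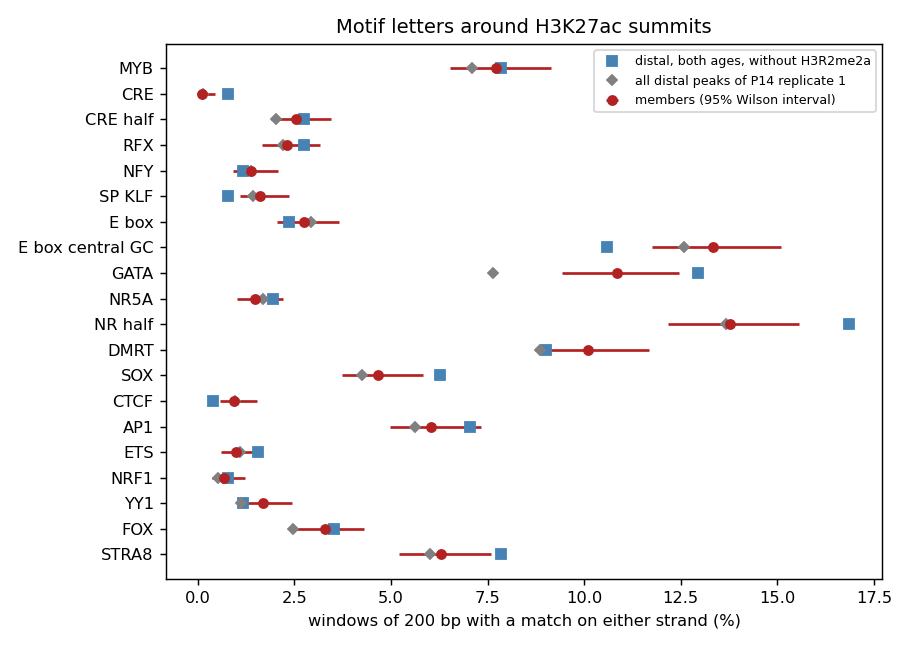
Percent of 200 bp windows (x axis) with a match on either strand for each of the 20 motifs searched (y axis), in members (circles with 95% Wilson intervals), in peaks of both ages without H3R2me2a (squares) and in all distal peaks of P14 replicate 1 (diamonds). The widest gap between members and all distal peaks is that of GATA, at 10.8 against 7.65%.

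Marks that did not choose the members were compared between the ages, since they ask whether other chromatin changed at the same places. H4R3me2a peaks overlapped 3.49, 2.80 and 3.05% of members in the 3 P7 lists and 9.40, 10.7 and 9.78% in the 3 P14 lists, without overlap between the ages. H3R8me2a peaks overlapped 2.93 and 3.05% at P7 and 6.16 and 5.04% at P14. H4R3me1 peaks overlapped 4.48 and 4.36% at P7 and 6.79 and 10.02% at P14. H3K4me3 peaks overlapped 4.67 and 4.05% at P7 and 9.34 and 9.53% at P14. For these 4 marks every P14 list was above every P7 list. With lists cut to one length within a mark, this held only for H3K4me3. H4R3me2s, the symmetric mark, overlapped 2.86 and 3.80% at P7 and 5.67, 2.55 and 3.05% at P14, and its ages overlapped. In the P14 H4R3me2s lists the peak names carry another number than the age in the labels, and these lists are grouped here by the labels.

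Averaged over the 5 marks, the share of members overlapped was 3.79 percentage points higher at P14 than at P7, and 5 of 5 marks were higher. An exact permutation test with ages permuted within each mark gave p = 0.000208 (two-sided, 43200 labelings). The members were chosen by an H3K27ac call at P14 and none at P7, so this difference is not independent of their choice. The test also takes lists of different marks as separate units, while the labels do not say whether they shared mice. Single marks could not reach 0.05 with 2 or 3 lists a group: the exact permutation p was 0.1 for H4R3me2a (difference 6.85 points), the smallest possible, 0.333 for H3R8me2a (2.62), H4R3me1 (3.99) and H3K4me3 (5.07), the smallest possible, and 0.9 for H4R3me2s (0.43). Without H4R3me2s, whose peak names differ from the labels, the mean over 4 marks was 4.63 points (exact permutation p = 0.000463). For all marks but H4R3me2s the P14 lists were also longer, as with 39597 to 44836 H4R3me2a peaks against 16995 to 18722 at P7. When lists were cut to one length within each mark, the mean difference fell to 0.63 points (exact permutation p = 0.0184) and H3R8me2a turned to -0.28 points. With peaks of a q of at most 0.01 the mean difference was 1.69 points (exact permutation p = 0.000231). The H4R3me1 difference was 5.604 points without P14 replicate 1 and 2.37 without P14 replicate 2. A higher share of overlapped regions at P14 was also found outside the members, and this was not tested: the mean H4R3me2a share was 14.5% at P7 and 38.4% at P14 over new distal peaks with H3R2me2a and 6.80% and 16.3% over peaks of both ages without it.

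**Figure D4:**
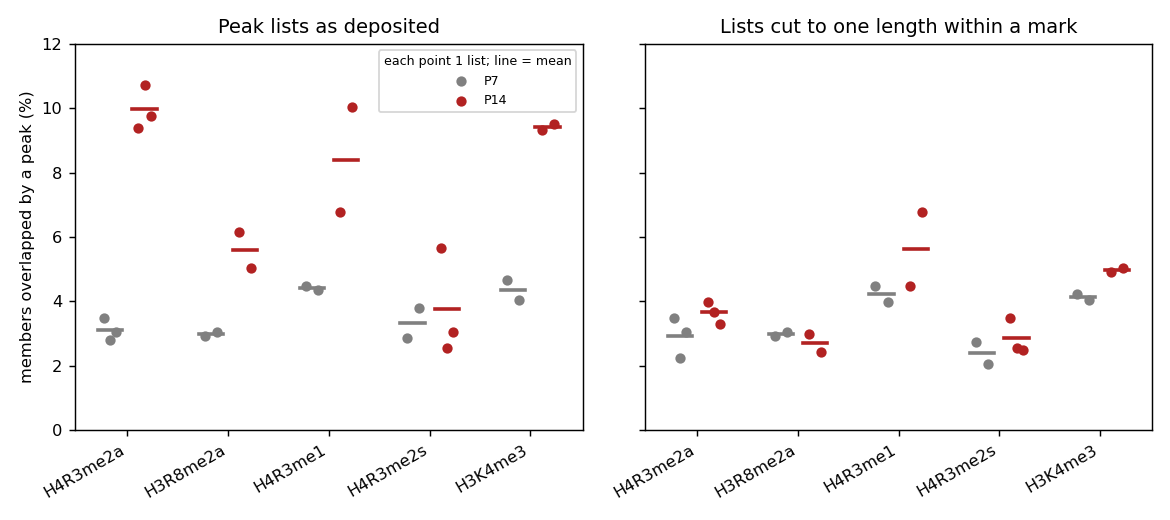
Percent of members overlapped by a peak of each list (1 point per list, line at the mean) for 5 marks at P7 (grey) and P14 (red). Left, lists as deposited; right, lists cut to the length of the shortest list of the mark, where the gap between ages narrows to a mean of 0.63 points.

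The arginine marks that overlapped members seldom did so in all replicates. H4R3me2a was called over 385 members (24.0%) in any P14 list but over 11 (0.685%) in all 3. The same counts were 171 and 9 for H3R8me2a, 242 and 28 for H4R3me1, and 167 and 0 for H4R3me2s, where 0 of 1606 allows a share of up to 0.187% when the limit is taken as 3 counts. H3K4me3 was called over 194 members in any list and over 109 in both. At P14, 1457 members (90.7%) had none of the 5 marks in all lists of the mark, 141 had 1 and 8 had 2. In peaks of both ages with H3R2me2a, H4R3me2a was called in all 3 P14 lists over 69.8%. The share was 13.8% in new distal peaks with H3R2me2a and 3.53% in peaks of both ages without it. The H4R3me2s lists were the shallowest, with a background pileup of 0.41 to 1.004 fragments. In dKO cells at P7 their peaks overlapped 3.55 and 2.62% of members, against 2.86 and 3.80% in WT, and the genotypes overlapped.

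Most genes nearest to members had RNA at P7. By transcript start, 1369 of 21951 protein-coding genes (6.24%) were nearest to at least 1 member, 1178 of them to 1 and 30 to 3 or more. Their median level in WT testis at P7 was 20.7, 21.6 and 18.96 TPM in the 3 bulk libraries, against 6.06, 6.12 and 5.61 TPM for all protein-coding genes, and 84.0, 84.1 and 83.8% of them had at least 1 TPM, against 62.4, 62.6 and 62.4% of all. In sorted WT spermatogonia it was 8.69 and 8.09 against 1.53 and 0.490 TPM. An H3K4me3 peak in both P7 lists lay within 1000 bp of a start of 81.2% of nearest genes and 59.6% of all, and an H3K27ac peak in both lists of 42.5% and 28.1% at P7 and of 65.5% and 45.8% at P14. These are descriptions of genes picked by position, with no test.

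The genes nearest to most members were Scml2, Tshz2, Zbtb20 and Myo5b with 5 each, and Kitl, Sox4, Zeb2, Slc7a14, Etl4 and Kcnd3 with 4 each. Kitl, the Sertoli cell ligand of the Kit receptor, had members at chr10:100131279-100131812 (folds of 4.03 and 4.12), chr10:100198770-100199289 (4.26 and 3.57), chr10:100060431-100060630 (3.19 and 3.68) and chr10:100042233-100042613 (2.97 and 3.42), between 26366 and 111090 bp from its start. Sox4, a transcription factor gene, had members 23275 to 87401 bp away, with the highest folds at 4.68 and 3.95. Tshz2 and Zbtb20 are zinc finger genes, and the 5 members nearest to the start of each all lay in introns. Of the Tshz2 members, 1 had H3K4me3 in both P14 lists. Zeb2, another zinc finger repressor gene, had 4 members with folds of 2.55 to 3.97. Kcnd3, a potassium channel gene, had 4 intronic members with folds of 2.43 to 4.29.

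Genes of germ cells and of somatic cells of the testis were among those nearest to a member, at distances from 4122 to 352714 bp. Among differentiating spermatogonia genes, 3 of 14 were nearest to a member: Kit, the receptor of Kitl, at 5884 bp (folds of 2.78 and 2.85, with H3K4me3), Dnmt3b, a DNA methyltransferase gene, at 6247 bp, and Rarg, a retinoic acid receptor gene, at 5487 bp. Among undifferentiated spermatogonia genes, 3 of 21 were, namely Etv5 at 55951 bp, Tspan8 at 20274 bp and Zbtb16 at 11905 bp. Of 44 meiotic prophase genes, 4 were: Brip1 and Tex14 with 2 members each, and Tex15 and Hsf5. The Brip1 members lay at 142027 and 147998 bp, and the Hsf5 member had H3K4me3. Of 27 pachytene genes, 4 were: Rfx3 (folds of 3.62 and 3.97), Sox30, Brdt, a bromodomain gene of spermatocytes, and Tbpl1. Of 23 Sertoli genes, 5 were: Kitl, Sox9 with 2 members at 68197 and 352714 bp, Trf, Gata4 and Aard. The members of Trf, Gata4 and Aard lay at 4183, 50058 and 74300 bp. The spermatid list had 1 of 23 (Odf1, at 45447 and 53190 bp) and the Leydig list 1 of 10 (Lhcgr, at 118108 and 173657 bp). The piRNA pathway, peritubular myoid, macrophage and endothelial lists had none. The share over all protein-coding genes was 6.24%, and these lists are short.

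The label of the cells was checked at the promoters of the same lists. These cells had passed a strainer meant to remove Sertoli cells. H3K27ac was called in both lists at 17 of 44 meiotic prophase promoters at P7 and 40 at P14, and at 2 and 13 of 14 differentiating spermatogonia promoters, against 28.1 and 45.8% of all protein-coding promoters. The counts were 11 and 19 of 27 for pachytene, 10 and 16 of 19 for piRNA pathway, 3 and 5 of 21 for undifferentiated spermatogonia and 4 and 6 of 23 for spermatid genes. At Sertoli promoters H3K4me3 was called at 20 of 23 at P7 and 18 at P14, and H3K27ac at 3 and 5. For H3K4me3 the share of all protein-coding promoters was 59.6% at P7 and 61.5% at P14, and the counts were 31 and 42 of 44 for meiotic prophase, 12 and 13 of 14 for differentiating spermatogonia, 14 and 14 of 21 for undifferentiated spermatogonia and 20 and 21 of 27 for pachytene genes. Among the other somatic lists it was called at 2 and 1 of 10 Leydig, 3 and 3 of 8 myoid and 3 and 3 of 8 endothelial promoters. None of the 10 macrophage promoters had a peak of either mark in both lists of an age. An increase of the share of spermatocytes between P7 and P14 and a change within a cell type cannot be told apart in these samples.

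RNA of the nearest genes was compared between Prmt1-dKO and WT at P7, the only contrast with RNA. Prmt1 itself was lower in every dKO library: 652, 604 and 638 TPM in WT and 410, 433 and 402 TPM in dKO testis, and 350 and 239 TPM in WT and 179 and 151 TPM in dKO spermatogonia. Its log2 fold change was -0.49 in testis (edgeR FDR = 0.0334) and -0.88 in spermatogonia (edgeR FDR = 0.133), below a 2-fold change in both. Without any of the 3 WT replicates or without dKO replicate 1 or 3, the testis value was 0.0696 to 0.105 (edgeR FDR). In bulk RNA-seq, edgeR's quasi-likelihood test called a gene at a Benjamini-Hochberg FDR below 0.05 with at least a 2-fold change. Of 1198 nearest genes tested, 21 (1.75%) were higher in dKO, where the background over 14730 protein-coding genes was 3.69%, and 21 (1.75%) were lower, where the background was 1.8%. The lower share is near the background and the higher share lies under it. The median log2 fold change was -0.09 for nearest genes and -0.00 for all protein-coding genes. In whole testis, fewer cells of a type and less RNA per cell cannot be told apart.

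Among genes that fell, Slc7a8, an amino acid transporter gene, had 18.5, 20.6 and 17.8 TPM in WT and 7.17, 5.23 and 6.59 TPM in dKO, a log2 fold change of -1.44 (SE 0.11, edgeR FDR = 0.000362). Slc38a5, a glutamine transporter gene of the X chromosome with a member 8229 bp away, had 80.8, 76.0 and 88.6 TPM in WT and 30.3, 24.7 and 26.1 TPM in dKO (log2 fold change -1.43, SE 0.12, edgeR FDR = 0.000464). The genotypes of both did not overlap. Ltbp1, which binds latent TGF-beta, had 25.5, 28.2 and 24.2 TPM in WT and 11.2, 8.26 and 7.11 TPM in dKO, a log2 fold change of -1.41 (edgeR FDR = 0.00119). Lipg, an endothelial lipase gene, fell by 1.98 and Kcns2, a potassium channel subunit gene, by 1.59 on the log2 scale. Kcnd3, with 4 members, had 15.5, 16.6 and 12.3 TPM in WT and 7.87, 4.24 and 6.37 TPM in dKO (log2 fold change -1.02, SE 0.16, edgeR FDR = 0.00399), and leaving out WT replicate 1 (-0.9996), WT replicate 2 (-0.986) or dKO replicate 2 (-0.877) moved it below a 2-fold change and ended the call. The other genes with 4 or 5 members were not called, Sox4 with a log2 fold change of -0.55 (edgeR FDR = 0.0530). None of the 20 tested among the 21 named genes of the cell type lists was called, and Odf1 was not tested. Below a 2-fold change, Brdt had 7.16 ± 1.28 TPM in WT and 10.9 ± 1.34 TPM in dKO (SD, n = 3; edgeR FDR = 0.00851), Brip1 had 6.02 ± 1.14 and 3.74 ± 0.856 TPM (edgeR FDR = 0.0289), and Sox9 had 89.4 ± 2.6997 and 53.2 ± 12.6 TPM (edgeR FDR = 0.0104). Lhcgr had 6.66 ± 2.095 and 6.30 ± 2.06 TPM, which overlapped, with a log2 fold change of counts of 0.69 (edgeR FDR = 0.0223). Each of these 4 lost the FDR threshold when certain libraries were left out: Brdt without WT replicate 1 (edgeR FDR = 0.0540) and Sox9 without WT replicate 2 (edgeR FDR = 0.0537). Brip1 did so without any of the 3 WT replicates or without dKO replicate 3 (edgeR FDR = 0.0526 to 0.117), and Lhcgr without WT replicate 1 or 2 or dKO replicate 1 or 3 (edgeR FDR = 0.0531 to 0.0930).

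Among genes that rose, Lgals4, a galectin gene, had 19.7, 17.1 and 23.0 TPM in WT and 63.5, 48.8 and 92.6 TPM in dKO, a log2 fold change of 1.99 (SE 0.22, edgeR FDR = 0.00134). Celf4, an RNA-binding protein gene, rose by 1.71, Tulp1 by 1.71, Far2, a fatty acyl-CoA reductase gene, by 1.27 and Slc44a3 by 1.26 on the log2 scale, from 1.11 ± 0.0611, 3.16 ± 0.254, 1.90 ± 0.537 and 1.68 ± 0.115 TPM in WT (SD, n = 3). The Far2 genotypes overlapped in TPM, and its edgeR FDR was 0.0933 without WT replicate 1, 0.0818 without WT replicate 3, 0.0580 without dKO replicate 1 and 0.0629 without dKO replicate 3. In the same libraries the summed levels of 3 somatic and 2 germ cell lists did not overlap between the genotypes. The share of all genes without overlap was not computed. Sertoli genes summed to 9143 to 9825 TPM in WT and 6384 to 6995 TPM in dKO, Leydig genes to 938 to 1041 and 443 to 466 TPM, and myoid genes to 1091 to 1190 and 398 to 686 TPM. Differentiating spermatogonia genes summed to 958 to 1049 and 715 to 887 TPM, and pachytene genes to 398 to 426 and 339 to 395 TPM, while the median log2 fold change of counts over the pachytene list was 0.09. Their part in the calls of nearest genes was not tested. Macrophage genes summed to 122 to 145 TPM in WT and 144 to 184 TPM in dKO, and endothelial genes to 91.6 to 99.1 and 89.0 to 111 TPM, both overlapping. Beside backgrounds of 3.69% higher and 1.8% lower, 2 of 43 meiotic prophase genes tested were higher and 0 lower, and 2 of 21 undifferentiated spermatogonia genes were higher and 0 lower. None was higher and 4 of 9 Leydig, 4 of 8 myoid, 1 of 22 Sertoli, 1 of 10 macrophage, 1 of 14 differentiating spermatogonia and 1 of 20 pachytene genes were lower. No spermatid, piRNA pathway or endothelial gene was called.

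**Figure D5:**
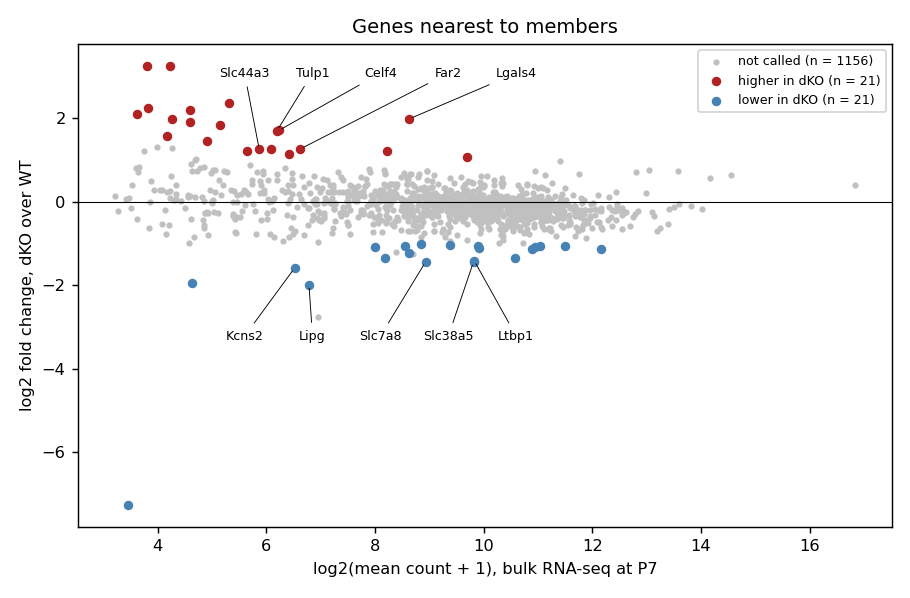
Log2 fold change of dKO over WT in bulk RNA-seq at P7 (y axis) against log2 of the mean count plus 1 (x axis) for 1198 genes nearest to members (1 point per gene). Genes called higher (red, 21) and lower (blue, 21) stand out, and the 10 named by the rule are labelled.

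In Smart-seq2 no nearest gene was called by edgeR: 0 of 1145 were higher and 0 were lower, and the background was 0 in both directions (0 of 13538 protein-coding genes), while 241 nearest genes (21.05%) had an unadjusted p under 0.05, against 3227 (23.8%) of all protein-coding genes tested. Without WT replicate 1 edgeR called 481 of 1191 nearest genes (40.4%), beside 40.8% of all protein-coding genes in that fit. Without WT replicate 2 it called 392 of 1190 (32.9%), beside 33%. DESeq2 called 81 nearest genes higher and 48 lower, where its background over 13787 protein-coding genes was 7.83% higher and 4.06% lower. Scml2, with 5 members, had 464 and 392 TPM in WT and 314 and 346 TPM in dKO spermatogonia (log2 fold change -0.18, edgeR FDR = 0.551). Kit had 73.0 and 57.4 TPM in WT and 53.6 and 77.7 TPM in dKO, and the genotypes overlapped. TPM and the fold change of counts differed for some genes, and the cause was not tested. Zbtb20 had 28.4 and 31.6 TPM in WT and 10.7 and 9.94 TPM in dKO, with a log2 fold change of counts of -0.33 (edgeR FDR = 0.510). In the same libraries the summed levels of the marker lists, except the endothelial one, did not overlap between the genotypes. Values of 2 libraries a genotype can separate without a genotype effect, and the share of all genes that did so was not computed. Meiotic prophase genes summed to 4750 to 4781 TPM in WT and 2220 to 2280 TPM in dKO, differentiating spermatogonia genes to 2636 to 2810 and 1622 to 1671 TPM, and undifferentiated spermatogonia genes to 227 to 278 and 533 to 595 TPM. Pachytene genes summed to 452 to 535 and 325 to 355 TPM, spermatid genes to 174 to 184 and 68.9 to 90.1 TPM, and piRNA pathway genes to 2205 to 2375 and 2076 to 2095 TPM. For 3 lists whose sum was lower in dKO the median log2 fold change of counts was above 0, at 0.23 over the 14 differentiating, 1.06 over the 9 tested spermatid and 0.62 over the 19 piRNA pathway genes, and edgeR called none of these genes. Sertoli genes summed to 489 to 606 and 859 to 1114 TPM, macrophage genes to 0 and 55.0 to 55.9 TPM, Leydig genes to 11.2 to 14.1 and 16.4 to 20.5 TPM, and myoid genes to 18.95 to 26.1 and 6.86 to 8.79 TPM. Their part in these values was not tested.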

How the data were processed

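The 33 CUT&Tag lists were deposited as MACS2 2.1.0 narrowPeak files on mm10, called by the authors per sample. They give fold enrichment, a ratio to local background, and −log10 p and −log10 q. The score column the authors deposited was not used. Aligner and duplicate removal: not given in the sources used here. RNA reads were trimmed by the authors with fastp 0.23.2 and mapped with STAR, and RSEM gave the expected counts and TPM they deposited. The members, gene lists and motifs were chosen with earlier results of these data known.

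Coordinates were checked against GRCm38, and 0 peaks lay beyond a chromosome end. Summit pileups were solved from fold and p. Overlaps needed 1 bp. Groups were compared by exact permutation over lists. Expected counts were rounded, filtered with filterByExpr, scaled by TMM and tested with edgeR 4.0.16 in R 4.3.3, each assay alone. RNA libraries held 12.4 to 18.5 M counts. Of 55401 gene IDs, 54349 matched GENCODE vM21 with version, and 1368 of 1369 nearest genes were found. Similar members were joined by blastn 2.17.0. The code was tested on simulated data. Regions are the 10 members highest by the lower fold and the largest cluster. Genes are the 10 nearest to most members, up to 5 a list, and up to 5 a direction called with a mean of at least 50 counts. Motifs searched beside those spelled out in the report were the short CRE (TGACGT), NFY (GCCAATNNG), SP/KLF (GGGGCGG), E-box (CACGTG), NR5A (CAAGGTCA), nuclear receptor (AGGTCA), DMRT (ACANTGT), SOX (CCTTTGT), CTCF (AGNNGGCGC), AP1 (TGANTCA), ETS (CCGGAAG), NRF1 (GCGCATGC) and STRA8 (CNCCTCAG). The NR5A letters contain the nuclear receptor ones and the full CRE contains the short one. Replicate numbers did not pair the samples. Alternatives changed the overlap, the q limit, list length, distances, the exclusions, the count test, its normalization and filter, and left out each sample.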

Additional observations from a re-analysis of the deposited data

Results flagged for a closer look

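Genes nearest to members whose dKO libraries all lay below WT in whole testis and all above WT in sorted spermatogonia were singled out among the named genes. The difference between the assays was not tested, and the share of all genes with this pattern was not computed. The mean TPM of dKO minus WT was -40.9 in bulk RNA-seq and 8.61 in Smart-seq2 for Kitl, -36.2 and 6.00 for Sox9, and -352 and 46.9 for Aard, which are Sertoli genes. It was -12.6 and 1.80 for Slc7a8, -7.53 and 3.84 for Kif21a, -3.86 and 0.600 for Lipg, and -1.88 and 1.07 for Kcns2. In bulk RNA-seq the edgeR FDR was 0.355 for Kitl, 0.262 for Aard and 0.0957 for Kif21a, and below 0.05 for the other genes. In Smart-seq2 the edgeR FDR ran from 0.0774 to 0.588 over these genes. Without bulk dKO replicate 2 the Kitl difference was -24.2. With 2 libraries a genotype, single spermatogonia libraries moved all of these differences but that of Kcns2 by over 1.5 times and turned none. Without dKO replicate 1 the difference was 9.55 for Sox9, 6.39 for Kif21a and 0.930 for Lipg. Without dKO replicate 2 it was 5.67 for Kitl, 2.46 for Sox9, 29.5 for Aard, 1.28 for Kif21a and 0.270 for Lipg. For Slc7a8 it was 2.77 without WT replicate 1 and 0.825 without WT replicate 2. Lipg and Kcns2 had 0 counts in both WT spermatogonia libraries. Over the whole Sertoli list the summed TPM in spermatogonia was 489 to 606 in WT and 859 to 1114 in dKO. No group held 4 or more samples, so no sample was tested for standing apart from its group.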

How the results depend on the processing

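The rule set the size of the set: 764 members remained with a reciprocal overlap of 50%, 416 at equal list length, 263 at a q of at most 0.01, 957 with the stricter distance limit tried and 2617 with no H3R2me2a exclusion. With a P14 H3K27ac list left out no replication was asked, and the count was 17188 without replicate 1 and 11223 without replicate 2. The X share ran from 0.998 to 3.85%, the intron share from 49.8 to 59.1%, the masked share from 17.2 to 22.1% and the H3K4me3 share from 1.996 to 12.9%.

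The age difference over 5 marks kept its direction and its side of 0.05 in every alternative run: 3.47 to 4.11 points with a list left out, 1.69 with peaks of a q of at most 0.01, 2.62 with 50% of the member covered and 0.63 at equal list length. The replicate block, with ages paired by number, gave 3.86 points (exact permutation p = 0.00195), although the numbers do not pair the lists. H3R8me2a turned to -0.28 at equal list length, for which the cause was not tested. H4R3me2s ran from -0.53 to 1.03 with a list left out, and was -0.53 without P14 replicate 1 and -0.04 without P7 replicate 1. The 4 marks alternative was added after the data were seen.

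Bulk calls among nearest genes were 42 (3.51%) with all libraries, beside 5.49% of all protein-coding genes. They were 57 (4.27%, beside 6.31%) with no filter, 54 (4.19%, beside 5.61%) by DESeq2 and 40 (3.34%, beside 4.42%) with the replicate block. With a library left out they were 35 to 51 (2.89 to 4.22%, beside 3.52 to 6.41%). Smart-seq2 calls were 0 with the replicate block and 129 by DESeq2 (11.2%, beside 11.9% of all protein-coding genes). Without WT replicate 1 they were 481 (40.4%, beside 40.8% of all protein-coding genes), and without WT replicate 2 they were 392 (32.9%, beside 33%), fits in which the lone WT library is assumed to vary like dKO. Bulk genes higher in dKO were 32 with no filter and 13 within 50000 bp, and lower ones 13 with the nearest gene of any biotype. The number of nearest genes tested differed between these settings, and no share in each direction was computed for them. Of the genes named as called, 9 of 11 were called in every alternative. Far2 also lost its call with the replicate block (FDR 0.0580, edgeR) and Kcnd3 lost it only with a library left out.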
